A study of Homo sapiens with 12 samples.

Results

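The nuclear genes for subunits of the mitochondrial respiratory chain and ATP synthase were examined in the OVCAR8 line after exposure to EC359, to trametinib or to both. Members were the rows whose symbol starts with NDUFA, NDUFB, NDUFC, NDUFS or NDUFV and a number, with UQCR, with COX4 to COX8 and a letter from A to C, or with ATP5, or is SDHA, SDHB, SDHC or SDHD. Pseudogenes (ATP5EP2 and UQCRBP1), antisense genes and the assembly factors named NDUFAF were left out. This gave 86 of 26485 genes. Of these, 82 encode subunits, with 36 in complex I, 4 in complex II, 9 in complex III, 17 in complex IV and 16 in complex V. NDUFA4 and NDUFA4L2 were placed in complex IV, where the NDUFA4 protein is found. The other 4 are the readthrough genes NDUFC2-KCTD14 and ATP5J2-PTCD1, and ATP5S and ATP5SL, which are named like ATP synthase but are not subunits. The symbols missed the subunit genes COX4I1, CYC1, NDUFAB1, USMG5 and C14orf2, which are described separately with CYCS (cytochrome c) and ATPIF1 (an inhibitor of ATP synthase). The subunits encoded by mitochondrial DNA were not analysed here.

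OVCAR8 is an established human ovarian cancer (OCa) cell line. The cells received vehicle (control), 150 nM EC359, which inhibits the leukemia inhibitory factor receptor, 100 nM trametinib, which inhibits the kinases MEK1 and MEK2, or both agents at these doses (combination) for 7 h. There were 3 libraries of polyadenylated RNA in each of the 4 groups, and nothing in the labels says whether they came from separate cultures, so p-values measure the spread between these libraries, which may be technical. All groups were the same cell line in the same medium, so every value describes 1 line at 1 time point.

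The respiratory chain moves electrons from nutrients to oxygen across the inner mitochondrial membrane. Complex I takes electrons from NADH and complex II from succinate, both pass them to coenzyme Q, complex III hands them to cytochrome c, and complex IV reduces oxygen. Complexes I, III and IV pump protons on the way, and complex V (ATP synthase) lets them flow back to make ATP. Most subunits are encoded in the nucleus and imported, and a smaller core is encoded by mitochondrial DNA.

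The library totals lay between 24790392 and 32467283 counts. Genes were tested together in all 12 libraries with edgeR's quasi-likelihood test, and a gene was called at a Benjamini-Hochberg adjusted p under 0.05 over the 14865 genes tested. Levels are CPM, counts per library brought to 1 common depth, after trimmed mean of M-values (TMM) scaling, and levels of different genes are compared only as TPM, which divides by gene length. Epithelial markers were found in every library (KRT7 at 1156 to 1412 TPM and PAX8 at 43.1 to 66.5 TPM). EPCAM and WT1 were lower, at 12.1 to 17.4 TPM and 1.52 to 3.40 TPM. The leukocyte marker PTPRC was at 0 TPM in all 12. The fibroblast marker COL1A1 was present at 82.9 to 216 TPM, while COL3A1 reached at most 0.0750 TPM. Mean COL1A1 was 172 TPM in untreated cells, 85.8 TPM under EC359, 214 TPM under trametinib and 120 TPM under both agents. The source of COL1A1 was not tested. MUC16, a marker of many serous ovarian tumors, lay between 0 and 0.00212 TPM. In bulk RNA, fewer expressing cells and less RNA per cell cannot be told apart.

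Scaling mattered for these small changes. With total counts in place of TMM, the median log2 change of all genes tested was -0.15 with EC359 and -0.14 with the combination, so a gene near 0 on one scale was below control on the other. Calls, log2 changes and shares of all genes are on the TMM scale unless total counts are named. Without any TMM factor, the 86 genes took 0.994% to 1.02% of the counts in the control libraries and 0.991% to 1.01% with trametinib. They took 0.854% to 0.871% with EC359 and 0.903% to 0.928% with the combination, and neither range overlapped control.

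Of the 82 subunit genes, 77 passed the filter on low counts, which was applied to all 12 libraries together. They were 36 of complex I, 4 of II, 9 of III, 13 of IV and 15 of V. In control, ATP5B, the catalytic beta subunit of ATP synthase, was the most abundant at 1407 ± 12.2 TPM (SD, n = 3). The highest in the other complexes were NDUFB9 (complex I, 1118 TPM), COX7C (IV, 990.4 TPM), UQCRH (III, 661 TPM) and SDHB (II, 232 TPM). The 5 untested genes are isoforms used in other tissues or little-expressed copies. COX6A2, the muscle form of COX6A, had 57 counts in all 12 libraries together and at most 8 in any. NDUFA4L2 had 51 counts with at most 12, and ATP5L2 had 17 with at most 4. COX7B2 and COX8C had a count of 0 in every library, which allows up to 3 counts, or 0.0924 to 0.121 CPM in these libraries. For counts as low as these, the intervals and limits cover counting error only.

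For 2 complex I genes the counts could not be read as expression. NDUFA3 is also annotated on 9 alternate contigs and NDUFA6 on 3, and reads of equal fit in several places have a low mapping quality, under which the authors left reads out. The part of this in their low counts was not tested. NDUFA3 lay between 0.166 and 0.637 CPM in 11 libraries and at 6.91 CPM in combination replicate 1. NDUFA6 lay between 0.148 and 1.03 CPM. Neither was called in any comparison on the TMM scale, and with total counts NDUFA6 was called lower in the combination than with trametinib.

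Shown here are promoters of members that changed with the combination, for the letters that the known activators of respiratory genes bind. That of an ATP synthase gene that differed between EC359 alone and the combination is added. All are the 250 bases before the RefSeq start on GRCh38.p14, 5′ to 3′ on the gene's strand. COX7A1, which rose more on the TMM scale than the rising genes shown, had no matched promoter. UQCRFS1 (chr19:29213152-29213401, minus strand) and NDUFV3 (chr21:42893059-42893308, plus strand) fell most with the combination. NDUFB8 (chr10:100529924-100530173, minus strand) and COX6A1 (chr12:120437863-120438112, plus strand) rose, and ATP5H (ATP5PD in RefSeq, chr17:75046970-75047219, minus strand) was lower with EC359 and not called with the combination on the TMM scale, while with total counts it was lower with both. Capitals mark the motif of NRF1 (GCGC, any base N and TGCGC; UQCRFS1, 31 bases before the start) or of ETS factors such as GABP (CCGGAAG, here on the opposite strand as CTTCCGG, COX6A1 at 16 and ATP5H at 101 bases before the start).
UQCRFS1: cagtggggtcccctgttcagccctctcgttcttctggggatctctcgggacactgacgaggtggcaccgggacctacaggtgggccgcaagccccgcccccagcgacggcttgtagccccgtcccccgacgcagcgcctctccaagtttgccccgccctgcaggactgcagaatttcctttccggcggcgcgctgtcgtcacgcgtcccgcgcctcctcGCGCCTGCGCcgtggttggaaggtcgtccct
NDUFV3: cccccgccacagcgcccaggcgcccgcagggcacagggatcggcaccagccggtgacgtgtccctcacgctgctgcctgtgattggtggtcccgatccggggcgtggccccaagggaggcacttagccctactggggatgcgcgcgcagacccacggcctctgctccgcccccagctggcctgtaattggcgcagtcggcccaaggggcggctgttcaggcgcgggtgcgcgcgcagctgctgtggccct
NDUFB8: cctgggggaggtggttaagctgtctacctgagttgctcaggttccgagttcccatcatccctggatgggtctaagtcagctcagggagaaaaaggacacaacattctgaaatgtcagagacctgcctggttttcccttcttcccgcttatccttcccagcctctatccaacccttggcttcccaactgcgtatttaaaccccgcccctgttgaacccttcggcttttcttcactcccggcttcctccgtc
COX6A1: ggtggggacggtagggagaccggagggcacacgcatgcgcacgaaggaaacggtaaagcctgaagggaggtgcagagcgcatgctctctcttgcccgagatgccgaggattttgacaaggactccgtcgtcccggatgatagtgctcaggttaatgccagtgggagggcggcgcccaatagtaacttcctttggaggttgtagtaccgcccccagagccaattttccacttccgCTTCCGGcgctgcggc
ATP5H: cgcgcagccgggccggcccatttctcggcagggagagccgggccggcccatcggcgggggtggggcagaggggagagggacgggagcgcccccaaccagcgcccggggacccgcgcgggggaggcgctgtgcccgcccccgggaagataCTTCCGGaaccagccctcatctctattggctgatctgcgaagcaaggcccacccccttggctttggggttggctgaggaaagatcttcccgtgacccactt

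NDUFV3 and NDUFB8 held none of the 3 motifs searched on both strands, the third being that of YY1 (AAGATGG). RefSeq promoters of 300 bases (250 before the start) were matched for 67 of the 82 subunit genes. The NRF1 motif was in 16 of them (23.9%, against 6.28% of 27305 promoters), the ETS motif in 18 (26.9%, against 10.7%) and the YY1 motif in 16 (23.9%, against 6.06%). At least 1 motif was in 38 (56.7%, against 20.5%). The median log2 change with EC359 was -0.18 over the 15 tested genes with the NRF1 motif and -0.10 over the 48 without it. For the ETS motif these medians were -0.14 and -0.10, and for YY1 -0.14 and -0.11. A match is a description of the letters and no evidence of binding.

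Compared to control, EC359 lowered many subunit transcripts by a small amount. Of the 77 tested, 47 fell, 5 rose and 25 were not called, while 30.3% of all genes tested were lower and 30.8% higher. The median log2 change was -0.11, against -0.01 over all genes. None changed by at least 2-fold, which 6.98% of all genes did. All 3 EC359 libraries lay below all 3 control libraries in 46 subunits (32.3% of all genes). The counts varied by complex. Complex V had 14 of 15 lower (median -0.18), complex I 22 of 36 (median -0.13), complex III 5 of 9 (median -0.11) and complex II 3 of 4 (median -0.18), whereas complex IV had 3 of 13 lower and 2 higher (median 0.02). The 5 that rose were NDUFV1 (log2 0.13), SDHA (0.13), COX6C (0.12), COX6A1 (0.12) and UQCRC1 (0.10), and with total counts in place of TMM none of them was called higher while 64 of the 77 were lower (21% and 44.9% of all genes tested on that scale).

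**Figure D1:**
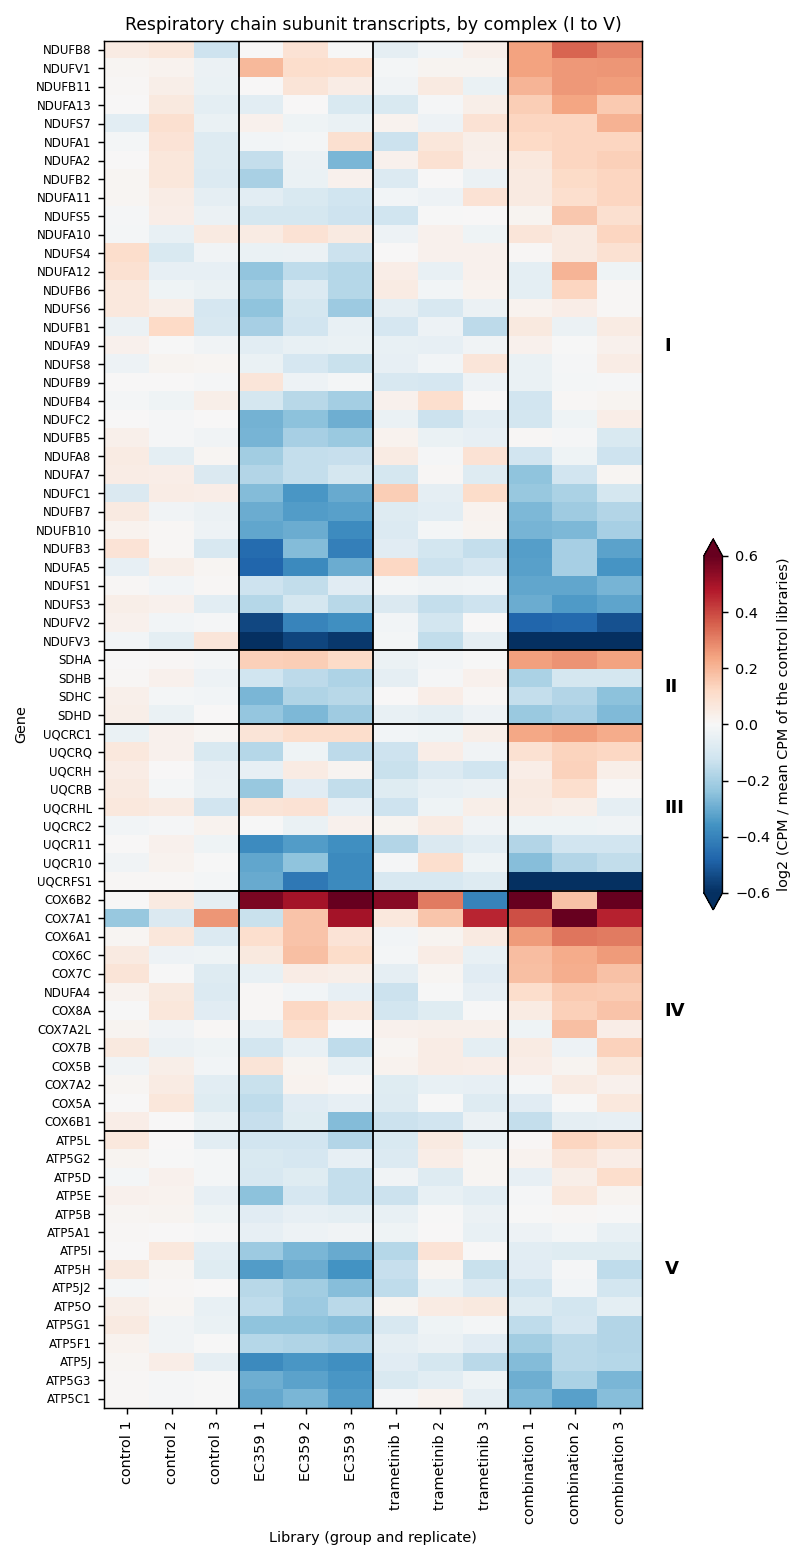
Log2 of each library's CPM over the mean of the 3 control libraries, for the tested subunit genes in rows, grouped by complex (I to V), and the 12 libraries in columns. NDUFA3 and NDUFA6 are left out for low counts and 1 gene is not reported; blue rows of complexes I and V in the EC359 columns are the lowered genes, and most are paler in the combination columns, except NDUFV3 and UQCRFS1, whose change with the combination exceeds the colour range.

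ATP synthase had the largest share of lowered genes with EC359. Its summed level was 3373, 3345 and 3278 CPM in the control libraries and 3006, 3032 and 3000.1 CPM with EC359, or 90.4% of control. The EC359 libraries were all below the control libraries. Trametinib (97.6% of control) and the combination (95.8%) lay between.

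In the catalytic F1 head, ATP5C1, the gamma subunit that turns in its center, was at 233, 231 and 231 CPM in control and 187, 191 and 183 CPM with EC359. All EC359 libraries were below control, with a log2 fold change of -0.31 (standard error 0.03, edgeR adjusted p = 4.3e-15). ATP5B fell by only 0.06 on the log2 scale (edgeR adjusted p = 0.015), and ATP5A1, the alpha subunit, was not called (-0.03, 95% interval -0.08 to 0.01). With total counts ATP5B and ATP5A1 were both lower (-0.19 and -0.17). All 4 genes of the peripheral stalk, which holds the head still, fell, from -0.18 for ATP5F1 and ATP5O to -0.33 for ATP5H and -0.36 for ATP5J. The membrane subunits e, f and g (ATP5I, ATP5J2 and ATP5L) fell by 0.26, 0.21 and 0.13.

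Subunit c forms the rotor ring and is made from 3 genes with the same mature protein. ATP5G3 was at 158, 157 and 157 CPM in control and 128, 126 and 124 CPM with EC359, without overlap (log2 -0.32). ATP5G1 fell by 0.25 and ATP5G2 by 0.08. In control these genes stood at 108 TPM (ATP5G3), 372 TPM (ATP5G1) and 383 TPM (ATP5G2), so the lowest by TPM had the largest change. That ranking rests on the annotated exon lengths, which are 3482, 646 and 1287 bases in the same order.

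In complex I, the core subunits that hold the flavin, the iron-sulfur clusters and the coenzyme Q site moved unevenly with EC359. NDUFV2, an iron-sulfur subunit of the NADH-binding module on chromosome 18 from 9102630 to 9134345, was at 141, 137 and 138 CPM in control and 94.8, 105 and 107 CPM with EC359. Its EC359 libraries were all lower (log2 -0.43, standard error 0.03, edgeR adjusted p = 2.0e-14). NDUFV1, which binds NADH and the flavin in the same module, was at 156, 157 and 152 CPM in control and 178, 167 and 166 CPM with EC359, all higher on the TMM scale and not called with total counts. NDUFS1, NDUFS3 and NDUFS8 fell by 0.09 to 0.15, and NDUFS7 was not called on the TMM scale but was lower with total counts (-0.15). Of the accessory subunits, 17 of 29 fell and none rose. NDUFV3 had the largest decrease of all members, and NDUFA5, NDUFB3, NDUFB10, NDUFB7 and NDUFC1 fell by 0.31 to 0.38.

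Complex II, which also belongs to the citric acid cycle, split by subunit. SDHA, the flavoprotein that oxidizes succinate, was at 229, 229.8 and 227 CPM in control and 253, 253 and 247 CPM with EC359. The iron-sulfur subunit SDHB fell by 0.15, and the membrane anchors SDHC and SDHD fell by 0.20 and 0.24. SDHD was at 131, 125 and 129 CPM in control and 109, 107 and 111 CPM with EC359, without overlap.

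In complex III, UQCRFS1, the Rieske iron-sulfur protein that takes electrons from coenzyme Q, fell by 0.37 with EC359, as did the small subunits UQCR11 (0.36) and UQCR10 (0.31). On the TMM scale the core proteins did not follow, with UQCRC1 higher (0.10) and UQCRC2 not called (-0.01, 95% interval -0.06 to 0.05). With total counts UQCRC1 was not called (-0.04) and UQCRC2 was lower (-0.14). In complex IV, COX6B1, COX7B and COX5A fell by 0.15, 0.10 and 0.09, and 8 of 13 were not called in either direction. COX5B, for example, changed by 0.02 (95% interval -0.04 to 0.07). With total counts, 8 of the 13 were lower, COX5B among them (-0.12), and none was higher.

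Compared to control, trametinib alone moved few subunit transcripts. None rose and 6 of 77 fell, while 13% of all genes tested were higher and 15.2% lower. Those that fell were NDUFS3 (log2 -0.12), UQCRH (-0.11), UQCR11 (-0.11), ATP5J (-0.11), ATP5J2 (-0.09) and NDUFB9 (-0.07). NDUFS3 was at 55.2, 55 and 51.6 CPM in control and 50.7, 48.8 and 49.5 CPM with trametinib, and the groups did not overlap. The median of the 77 was -0.02, and none changed by at least 2-fold (1.43% of all genes). The count of 6 depended on single libraries, with 2 without control replicate 1, 1 without control replicate 2, 12 without control replicate 3 and 3 without trametinib replicate 1. It was 3 with the DESeq2 test and 1 with total counts, which gave 16.7% of all genes higher and 11.9% lower.

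Compared to control, the combination split the subunits on the TMM scale into 21 that rose, 23 that fell and 33 that were not called, against 35% and 34.7% of all genes tested. The combination libraries lay wholly below control in 26 (35.8% of all genes) and wholly above in 17 (36%). The median was 0.01. Complex IV had 6 of 13 higher and none lower (median 0.12), complex V had 7 of 15 lower and none higher (median -0.07), and complex I had 11 higher and 10 lower (median 0.01). Complex III had 3 each way, and complex II kept SDHA higher and SDHB, SDHC and SDHD lower. With total counts, 7 of the 77 were higher and 48 lower (25.8% and 45.8% of all genes tested), and the median of -0.13 lay close to the -0.14 of all genes. The 7 that rose on both scales were COX6A1, COX6C, NDUFB8, NDUFB11, NDUFV1, SDHA and UQCRC1. UQCRH was called higher with TMM (0.07) and lower with total counts (-0.07).

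**Figure D2:**
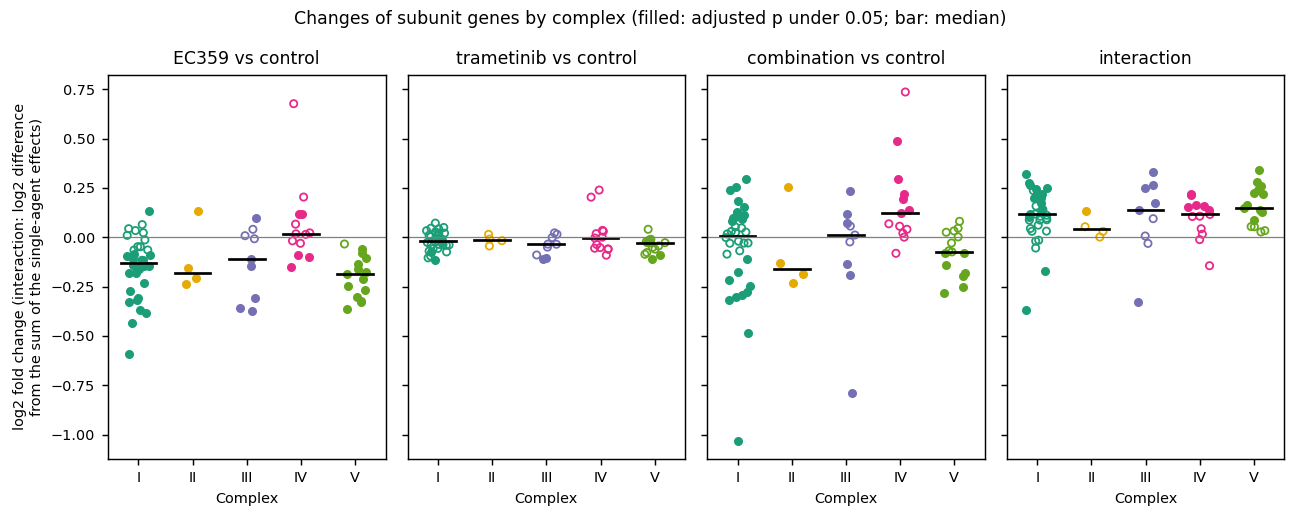
Log2 change of each subunit gene (points, filled at an adjusted p under 0.05) by complex for EC359, trametinib and the combination against control and for the interaction, with a bar at the median. NDUFA3 and NDUFA6 are left out for low counts; on this TMM scale complex V sits below 0 with EC359 and complex IV above 0 with the combination, and with total counts the combination medians move to -0.02 for complex IV and -0.21 for complex V.

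The combination's largest decreases were in NDUFV3 and UQCRFS1, followed by the core subunits NDUFV2, NDUFS3 and NDUFS1 of complex I. NDUFV3, an accessory subunit at the NADH-binding end of complex I (chromosome 21, 42893268 to 42909663), was at 23.7, 23.0 and 25.1 CPM in control, 15.3, 16.3 and 16 CPM with EC359, 23.7, 21.6 and 23.1 CPM with trametinib, and 11, 11.7 and 12.3 CPM with the combination. EC359 was below control and the combination below EC359, with no overlap, while trametinib overlapped control. The change was -0.59 with EC359 and -1.03 with the combination (standard error 0.07, edgeR adjusted p = 1.7e-20). NDUFV3 was the only subunit gene changed by at least 2-fold, which 13.1% of all genes were, and it was just under that limit (-0.992 and -0.995) without combination replicate 1 or control replicate 3.

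UQCRFS1 (chromosome 19, 29207260 to 29213229) was at 74.2, 74.2 and 73.3 CPM in control, 59.9, 54.8 and 56.6 CPM with EC359, 69.1, 69.1 and 70.1 CPM with trametinib, and 41.0, 43.7 and 43.5 CPM with the combination. The 4 groups did not overlap, and control was highest and the combination lowest. The combination's log2 fold change was -0.79 (standard error 0.04, edgeR adjusted p = 2.5e-25), against -0.37 with EC359 and -0.09 with trametinib, which was not called. Its annotated gene has 2 exons.

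NDUFS1, the largest iron-sulfur subunit of complex I (chromosome 2, 206123079 to 206159519), was at 60.8, 59.8 and 60.7 CPM in control, 55.5, 54.5 and 57.7 CPM with EC359 and 48.6, 48.7 and 49.8 CPM with the combination. It fell by 0.11 with EC359 and by 0.30 with the combination, in steps that did not overlap. NDUFS3, a core subunit in the module that hands electrons to coenzyme Q, fell by 0.32, with 43.8, 42.6 and 43.3 CPM in the combination. NDUFV2 fell by 0.49, close to its change with EC359 alone, and the EC359 and combination libraries overlapped.

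**Figure D3:**
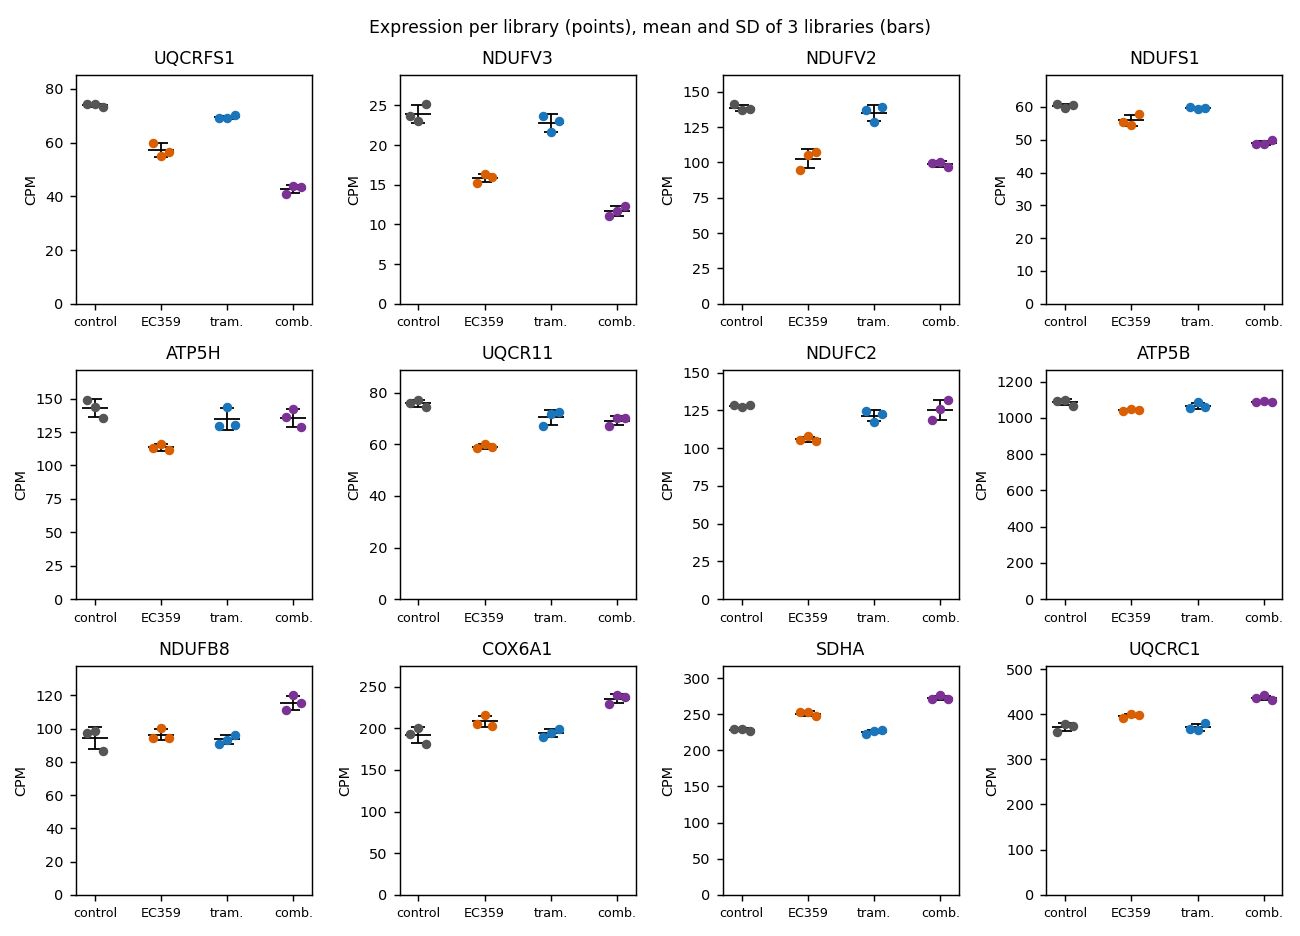
CPM after TMM scaling of 12 subunit genes in each library (points) of the 4 groups, with the mean and SD of 3 libraries; each y axis starts at 0. The top row falls with EC359, and all but NDUFV2 fall further with the combination (comb.); in the middle row the EC359 libraries are lowest; in the bottom row the combination libraries are highest, and these 4 genes are also called higher than control with total counts.

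Of the 7 genes that rose with the combination on both scales, NDUFB8, COX6A1, NDUFV1 and SDHA rose most. NDUFB8, an accessory subunit of the membrane arm of complex I (chromosome 10, 100523729 to 100529923), was at 97.6, 98.7 and 86.6 CPM in control, 94.4, 100.2 and 94.3 CPM with EC359, 90.9, 93.3 and 96.2 CPM with trametinib and 111, 119.9 and 115 CPM with the combination. Only the combination stood apart, with a log2 fold change of 0.30 (standard error 0.04, edgeR adjusted p = 1.8e-07), or 0.16 with total counts. NDUFV1 rose by 0.26 and NDUFB11 by 0.24.

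COX6A1, the ubiquitous form of a small complex IV subunit (chromosome 12, 120438090 to 120440742), was at 193, 201 and 182 CPM in control, 206, 216 and 203 CPM with EC359 and 229, 239 and 238 CPM with the combination. It rose by 0.30 with the combination (edgeR adjusted p = 1.6e-11), and the combination libraries were above all others. COX6C and COX7C rose by 0.22 and 0.19, NDUFA4 by 0.14 and COX8A by 0.12, of which COX7C, NDUFA4 and COX8A were not called with total counts. COX7A1, the heart and muscle form, rose by 0.49 from a low level, with 2.14, 2.36 and 3.02 CPM in control and 3.27, 3.80 and 3.46 CPM with the combination, and it was not called with total counts. Its general counterpart COX7A2, at 544 TPM in control against 7.86 TPM for COX7A1, was not called (0.02), and was lower with total counts (-0.12). COX6B2, the testis form of COX6B, lay between 0.324 and 0.958 CPM and was not called.

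SDHA (chromosome 5, 218223 to 257082) was at 271, 276 and 270.5 CPM with the combination, above its EC359 libraries and above control, a log2 rise of 0.25 (standard error 0.02, edgeR adjusted p = 9.0e-14). UQCRC1, a core protein of complex III, was at 361, 378 and 374 CPM in control and 436, 441 and 432 CPM with the combination, a rise of 0.23. UQCRQ rose by 0.12 on the TMM scale only, and UQCR10 fell by 0.19. UQCRHL, a near copy of UQCRH that may share its reads, was not called (0.01).

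Compared to EC359 alone, the combination had higher levels of most subunits. Of the 77, 43 were higher and 4 lower (24.1% and 25.2% of all genes tested), with a median of 0.10, and total counts gave 40 and 4 (23.4% and 25.5%). No difference reached 2-fold, as 3.24% did over all genes. By complex, 20 of 36 were higher in complex I, 1 of 4 in II, 5 of 9 in III, 6 of 13 in IV and 11 of 15 in V. The 4 that were lower were NDUFV3 (-0.44), UQCRFS1 (-0.42), NDUFS1 (-0.19) and NDUFS3 (-0.17).

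Among the 47 subunits that fell with EC359, 30 were higher in the combination than in EC359, 13 were not called and 4 were lower. Their median log2 change from control was -0.18 with EC359 and -0.08 with the combination on the TMM scale. The 47 were picked for low values in the EC359 libraries, which also enter this comparison. Part of such a rise can follow from that choice, and the size of this part was not tested. The share that rose among all genes lower with EC359 was not taken. Compared to control, 23 of the 47 were still lower with the combination, 20 were not called and 4 were higher. A group of 17 was both higher than with EC359 and not called against control, namely NDUFC2, NDUFB5, NDUFA12, NDUFS6, NDUFB4, NDUFB6 and NDUFS8 of complex I, UQCRB of complex III, COX7B and COX5A of complex IV, and ATP5H, ATP5I, ATP5E, ATP5L, ATP5D, ATP5G2 and ATP5B of complex V. A p that misses the threshold does not show that these equal control, and with total counts 14 of the 17 were lower than control.

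ATP5H, subunit d of the stalk (chromosome 17, 75038860 to 75046979), was at 149, 144 and 136 CPM in control, 113, 116 and 111 CPM with EC359, 129.8, 144 and 130.1 CPM with trametinib and 136, 142 and 129 CPM with the combination. EC359 alone stood below the other 3 groups, which overlapped each other. The change was -0.33 with EC359 (edgeR adjusted p = 7.7e-06) and -0.07 with the combination (edgeR adjusted p = 0.15). NDUFC2, a membrane-arm subunit of complex I, was at 128, 127 and 128 CPM in control, 105, 108 and 104 CPM with EC359 and 119, 126 and 132 CPM with the combination, which again overlapped control. ATP5B was at 1095, 1099 and 1067 CPM in control, 1036, 1050.4 and 1044 CPM with EC359 and 1086, 1093 and 1085 CPM with the combination.

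The difference between the combination and the sum of the single-agent log2 effects (the interaction) was tested directly. It was above 0 for 37 of 77 subunits and below 0 for 3, against 14.4% and 15.9% of all genes tested. The median was 0.13, against -0.01 over all genes, and none was 2-fold or more (1.57% of all genes). With total counts, 27 were above and 3 below (11.7% and 19.1% of all genes). The counts above 0 were 14 of 36 in complex I, 1 of 4 in II, 5 of 9 in III, 6 of 13 in IV and 11 of 15 in V. The largest were ATP5H (0.34, edgeR adjusted p = 0.00063), UQCR11 (0.33, edgeR adjusted p = 9.3e-07) and NDUFC2 (0.32, edgeR adjusted p = 9.6e-08). The 3 below 0 were NDUFV3 (-0.37, edgeR adjusted p = 0.0014), UQCRFS1 (-0.33, edgeR adjusted p = 3.9e-06) and NDUFS1 (-0.17, edgeR adjusted p = 0.013).

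UQCR11, a small subunit of complex III, was at 76.0, 77.1 and 74.4 CPM in control, 58.4, 60.1 and 58.8 CPM with EC359, 67.2, 71.5 and 72.6 CPM with trametinib and 67.2, 70.1 and 70.0 CPM with the combination. EC359 was lowest, and the trametinib and combination libraries overlapped below control. Relative to trametinib alone, the combination had 24 subunits higher and 21 lower (35.3% and 32.9% of all genes tested), with a median of 0.04 and none by 2-fold or more (11.6% of all genes), and total counts gave 5 and 49 (23.5% and 47.6%). The effect of EC359 without trametinib and its effect on top of trametinib come from separate libraries, and across 75 subunit genes they correlated with Pearson's r of 0.81 and Spearman's rho of 0.79, against 0.79 and 0.79 across all genes tested. Genes are not independent replicates.

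**Figure D4:**
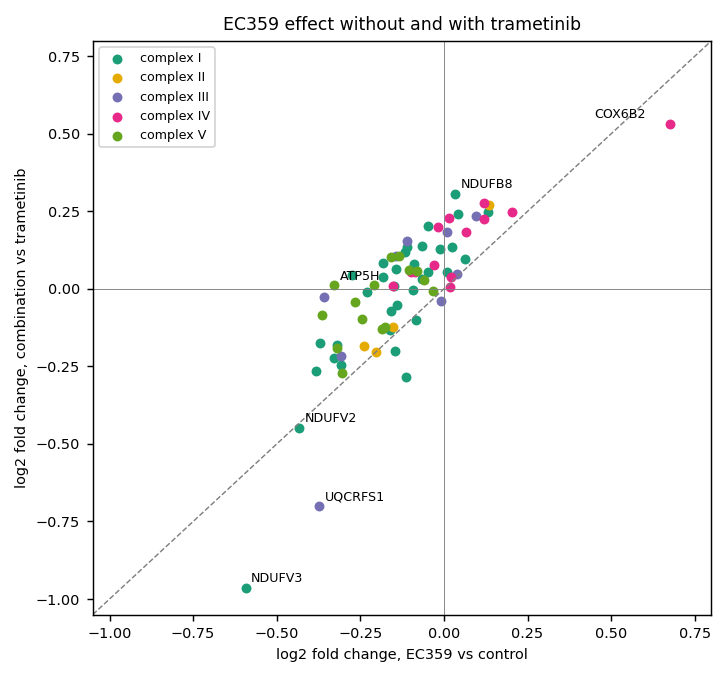
Log2 change with EC359 against control (x axis) and with the combination against trametinib (y axis) for 75 subunit genes, colored by complex, with the line of equal change. NDUFA3 and NDUFA6 are left out for low counts; most points lie above the line, ATP5H among them, while NDUFV3 and UQCRFS1 lie below it, and with total counts the points move to lower values on both axes.

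Summed over each complex, these opposite changes partly cancelled on the TMM scale. Complex I stood at 92.4% of control with EC359 and 99.1% with the combination, complex II at 96.6% and 101%, complex III at 96.4% and 104%, and complex IV at 101% and 109%. With trametinib they lay between 97.3% and 98.8%. All 82 together stood at 93.8%, 98.0% and 100.1% with EC359, trametinib and the combination. In summed TPM, which has no TMM factor, the same values were 88.5%, 100.4% and 92.9%. By complex, summed TPM with EC359 was 86.8% of control for I, 88.4% for II, 91.3% for III, 95.3% for IV and 83.6% for V. With the combination it was 91.2% for I, 89.4% for II, 94.3% for III, 100.3% for IV and 88.5% for V.

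The 4 members that are not subunit genes moved as follows. ATP5S was lower with EC359 (-0.27) and the combination (-0.25), and ATP5SL, now named for a role in complex I assembly, was higher (0.14 and 0.28). NDUFC2-KCTD14 and ATP5J2-PTCD1 share exons with NDUFC2 and ATP5J2, and reads in shared exons appear to have been counted in full for both, since the readthrough genes had 0.971 to 1.11 and 0.855 to 1.01 times the counts of the shorter genes. They fell with EC359 by 0.34 and 0.36, and their own transcripts cannot be told apart from those of the shorter genes.

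The genes that the symbols missed, CYCS and ATPIF1 included, were counted apart from the members. Of 7 tested, 5 fell and 1 rose with EC359 (median -0.16), 3 rose and 2 fell with the combination (median 0.02), and 6 had an interaction above 0 (median 0.22). Among all genes tested, 30.3% fell and 30.8% rose with EC359, and 35% rose and 34.7% fell with the combination. The interaction was above 0 for 14.4% of them. CYCS, cytochrome c, was at 432, 422 and 414 CPM in control and 498, 508 and 486 CPM with the combination, a rise of 0.24. COX4I1, a complex IV subunit, rose by 0.23.

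Most factors that assemble the complexes were lower both with EC359 and with the combination, where 30.3% and 34.7% of all genes tested were lower. For complex I, 16 of 19 fell and 1 rose both with EC359 and with the combination (medians -0.30 and -0.30). For complexes II and III, 9 and 8 of 10 fell and none rose (medians -0.42 and -0.45). For complex IV, 20 and 19 of 28 fell and 4 and 5 rose (medians -0.28 and -0.26), and for complex V, 4 and 2 of 5 fell and 0 and 1 rose (medians -0.23 and -0.15). The median interaction was -0.01 for factors of complex I and of complexes II and III and 0.03 for those of complex IV. It was 0.13 for the 5 factors of complex V, with all 5 above 0 and 1 called, and 0.13 for the subunits, and the difference between these medians was not tested.

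Of the 28 complex IV assembly factors tested, 1 was higher and 3 were lower by at least 2-fold with the combination. This was close to the 13.1% of all genes tested that changed by that much in either direction. The other assembly factor lists, with 19, 10 and 5 genes tested, held no such change. FASTKD3, which acts on mitochondrial RNA of complex IV subunits, was at 14.6, 14.9 and 14.1 CPM in control and 3.43, 3.17 and 3.80 CPM with the combination (log2 -2.07). PET117 and SCO1, which delivers copper to complex IV, fell by 1.31 and 1.25. COX19 rose by 1.02, from 18.7, 19.6 and 18 CPM to 36.5, 39.9 and 37.3 CPM. Of the complex I factors, TMEM186, NDUFAF4 and NDUFAF1 fell by 0.92, 0.87 and 0.63 and ECSIT rose by 0.60.

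**Figure D5:**
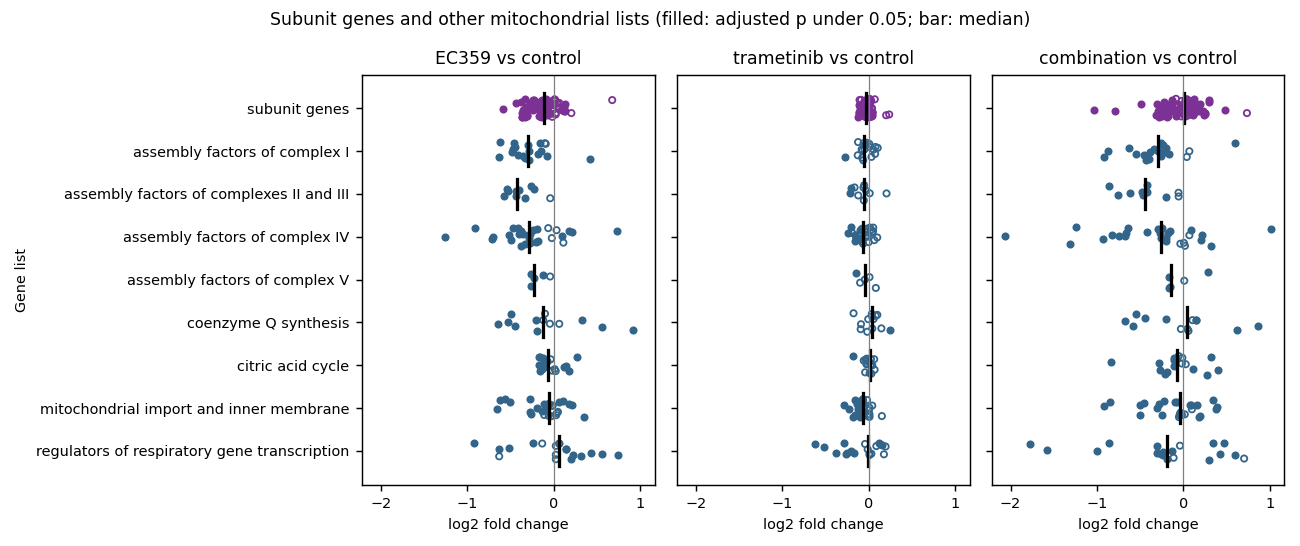
Log2 change of 75 subunit genes and of other mitochondrial gene lists (points, filled at an adjusted p under 0.05) for EC359, trametinib and the combination against control, with a bar at each list's median. The medians of the assembly factor lists lie between -0.45 and -0.15 with EC359 and the combination, while the subunit genes center near 0 with the combination; on total counts the combination median of the subunits is -0.13.

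Transcription factors and coactivators of respiratory genes did not move as a block. With EC359, 8 of 19 rose and 4 fell (30.8% and 30.3% of all genes), and with the combination 5 rose and 11 fell (35% and 34.7%), with medians of 0.06 and -0.19. MYC rose by 0.75 with EC359 and 0.43 with the combination and fell by 0.52 with trametinib. PPRC1, a coactivator related to PPARGC1A, rose by 0.43 with EC359 and 0.59 with the combination. NRF1 and GABPA were not called with EC359 (0.02 each) and fell by 0.19 and 0.24 with the combination. Among factors for mitochondrial DNA, MTERF1 and TFB1M fell by 1.78 and 1.58 with the combination.

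Neighboring pathways were mixed. Of all genes tested, 30.8% were higher and 30.3% lower with EC359, and 35% and 34.7% with the combination. In the citric acid cycle, 4 of 17 rose and 8 fell with both EC359 and the combination (medians -0.07 and -0.08), with OGDH at -0.84 with the combination. Coenzyme Q synthesis had 3 of 13 higher and 6 lower with EC359 and 4 and 5 with the combination (medians -0.12 and 0.05). For protein import and the inner membrane, 5 of 26 rose and 12 fell with EC359, and 8 rose and 12 fell with the combination (medians -0.06 and -0.04). The interaction was above 0 for 10 of these 26 and below 0 for 2 (median 0.09), against 14.4% and 15.9% of all genes tested. In the citric acid cycle it was above 0 for 2 of 17 and below 0 for 2 (median -0.01). For coenzyme Q synthesis these counts were 1 and 1 of 13 (median 0.04).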

How the data were processed

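Polyadenylated RNA of OVCAR8 cells (4 groups of 3 libraries) was sequenced from both ends for 100 bp. Per the submitters' processing notes, HISAT2 was used with hg38. Per the file headers, the authors ran featureCounts 1.5.0-p1 on exons by gene, reverse-stranded, with a minimum mapping quality of 2 and multiply placed reads as fractions. The deposited values are therefore estimated counts with no normalization. They were rounded, since 12.4% to 15.1% of genes per library were not whole. Totals were 24790392 to 32467283 counts, at which 0 counts allows up to 0.0924 to 0.121 CPM.

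Genes were kept with filterByExpr (minimum count 10, total 15) of edgeR 4.0.16 in R 4.3.3, scaled by TMM (factors 0.947 to 1.06) and fitted in 1 robust quasi-likelihood model without a replicate term. Contrasts set every treatment against control, and the combination against either agent and against the sum of their log2 effects. The biological coefficient of variation was 3.95%. The fit was tested on simulated data. Same-numbered libraries did not deviate together. TPM used the annotated exon length. Alternatives were total counts, DESeq2 1.42.0 and its size factors, other filters, a non-robust fit, only the groups compared, a replicate block and leaving out each library. Members and lists were chosen with earlier results of these data known. Genes described in full were, in each complex, the 2 largest changes each way with the combination, then the largest changes with each agent and interaction, changes of at least 2-fold, the most abundant gene of each complex and isoform families; other members may be named. At most 3 genes each way were named from other lists, except NRF1, GABPA and genes that the symbol rule missed, which were named after their values were seen. Promoters came from RefSeq (GRCh38.p14), and coordinates from the hg38 annotation in the files. Some genes of these lists are not reported here by name.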

Additional observations from a re-analysis of the deposited data

Results flagged for a closer look

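The test of the combination against the sum of the single-agent log2 effects flagged 37 subunit genes as higher and 3 as lower. Among all genes tested, 14.4% lay above that sum and 15.9% below it, by edgeR with Benjamini-Hochberg adjusted p-values. The largest positive differences were in ATP5H (0.34), UQCR11 (0.33) and NDUFC2 (0.32), all of which were lower with EC359 alone in 3 of 3 libraries and higher again when trametinib was added. The negative differences were in NDUFV3 (-0.37), UQCRFS1 (-0.33) and NDUFS1 (-0.17), for which all 3 combination libraries lay below all 3 EC359 libraries. The count of 37 was 27 with total counts, and that of 3 was the same (11.7% and 19.1% of all genes tested).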

How the results depend on the processing

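Over the 6 comparisons, 234 changes of subunit genes were called. All 234 were kept with at least 10 counts in every library, 228 with DESeq2 size factors, 226 with no filter, 216 without the robust option and 208 with the DESeq2 test, with no change of sign. Total counts in place of TMM kept 178, lost 31 and turned the sign of 25. This leaves out the TMM factors, which were 1.04 to 1.05 in control and 1.06 with trametinib. They were 0.950 to 0.952 with EC359 and 0.947 to 0.949 with the combination. With total counts 0 subunits were called higher and 64 lower with EC359 (median -0.25), against 21% and 44.9% of all genes tested (median -0.15). With the combination they were 7 and 48 (median -0.13), against 25.8% and 45.8% (median -0.14). For the combination against trametinib they were 5 and 49 (median -0.13), against 23.5% and 47.6% (median -0.16). With trametinib 1 was lower (median 4.2e-05), as were 11.9% of all genes tested (median 0.03). The median interaction was 0.10 with total counts and 0.12 with no filter. The count lower with trametinib was 3 with the DESeq2 test and 11 with only the groups compared, where the median of the combination against trametinib was 0.025. Why the TMM factors differed between groups was not tested, nor was the cause of the differences with the other settings.

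With each library left out in turn, 202 to 229 of the 234 were kept with no change of sign. The count with trametinib ranged from 1 to 12 lower and 0 to 1 higher, with a median from -0.041 to -0.015. The median ranged from -0.012 to 0.016 for the combination, from 0.10 to 0.12 for the combination against EC359, from 0.024 to 0.052 for the combination against trametinib and from 0.11 to 0.14 for the interaction. The interaction of NDUFS1 was no longer called without EC359 replicate 3 (-0.15).

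Replicate numbers are shared between groups, but only 3 of 18 correlations of same-numbered libraries were over 0.1, so they were not taken as pairs. With the replicate number as a block, 231 of 234 changes were kept, and the counts were 5 higher and 47 lower with EC359 and 22 higher and 24 lower with the combination. Counts were too low for a test in COX6A2, COX7B2, COX8C, NDUFA4L2 and ATP5L2. They were also low in NDUFA3 and NDUFA6, where the part of the alternate contigs was not tested.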
